A study of Homo sapiens with 2 samples.

Results

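The 691 TP73 peaks of chromosome 19 were examined, out of 18908 peaks in the deposited list, or 3.65% of it. They are all the peaks on that chromosome, picked by position and not by signal. This set and the segments used below were chosen with earlier results of these data known. Each peak was placed on hg19 by its summit, the base with the highest ChIP signal. The cells were TL-Om1, an established line derived from adult T-cell leukaemia, a human cancer of mature T cells, and were grown in RPMI-1640 with 10% serum and were fixed with formaldehyde for 10 min. The study holds 1 ChIP library, made with an antibody against TP73, and 1 input library of whole cell extract. Neither library comes from treated cells, and both come from the same single line. With 1 library per group no value has a replicate error, and every interval below is a 95% interval for counting error only. These intervals treat peaks as independent, although neighbouring peaks can belong to 1 enriched region.

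TP73 is a transcription factor of the p53 family. Like its relatives it binds DNA as a tetramer on paired half-sites, and it is known for activating genes of cell-cycle arrest, apoptosis and differentiation. Chromosome 19 is the human chromosome richest in genes for its length. It also carries most of the large tandem clusters of KRAB zinc finger genes, whose proteins recruit the corepressor TRIM28 to transposable elements, and these clusters are themselves known to carry repressive histone methylation.

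Of the 1451 protein-coding genes that RefSeq (GRCh38.p14) lists on chromosome 19, 265 (18.3%) have a zinc finger symbol such as ZNF, ZFP or ZSCAN. They make up 47.2% of the 562 such genes on all chromosomes, and chromosome 7 came next with 37. Genes were picked by symbol alone, so not all of them need be KRAB zinc finger genes. In the order of protein-coding genes along chromosome 19, 213 of the 265 stood in 18 unbroken runs of at least 5 zinc finger genes. The longest run had 27 genes, from ZNF737 to ZNF681, and runs of 24 genes reached from ZNF565 to ZNF793 and from ZNF627 to ZNF791. Runs of 23 and 20 genes reached from ZNF772 to ZNF256 and from ZNF283 to ZNF180. RefSeq positions are on another build and were not set against the peaks, so the segments below rest on fixed hg19 positions and no peak is given a gene. Which runs lie inside the 4 cluster segments was not tested, and some may lie outside them, in the segments they are compared with.

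The chromosome was divided into a short-arm segment (0 to 20 Mb), 4 zinc finger cluster segments and the rest of the long arm. Cluster 1 spans 20 to 24.5 Mb, next to the centromere and on the short arm as well, so "short arm" below means the first 20 Mb only. Of the others, cluster 2 spans 36.5 to 38.5 Mb, cluster 3 spans 52 to 54 Mb and cluster 4 spans 56 to 59.2 Mb. The rest falls into stretch A (24.5 to 36.5 Mb), stretch B (38.5 to 52 Mb) and stretch C (54 to 56 Mb).

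TP73 peaks were sparse in the zinc finger clusters and dense on the short arm and in part of the long arm. The 4 clusters together held 46 peaks in 11.7 Mb, or 3.93 peaks per Mb (2.88 to 5.24). The short arm held 355 peaks, which is 51.4% of the chromosome's peaks, at 17.8 per Mb (15.95 to 19.7). The rest of the long arm held 290 peaks at 10.5 per Mb (9.37 to 11.8). Cluster density was thus 0.222 times that of the short arm (exact conditional interval of the ratio 0.159 to 0.302) and 0.373 times that of the rest of the long arm (0.267 to 0.510). Both intervals lie below 1. The rest of the long arm was itself uneven, with 3.50 peaks per Mb in stretch A, 17.3 in stretch B and 7.50 in stretch C. The interval of stretch A (2.52 to 4.73) overlaps that of the 4 clusters together, so they were not told apart. Low density as counted here was therefore also found outside the clusters. Most of the longest peak-free interval lies in stretch A, however, and assembly gaps such as the centromere were not subtracted. Whether stretch A is as sparse as the clusters without such gaps was not tested. The clusters were also below the combined density of the 21 other autosomes, at 0.601 times their 6.54 peaks per Mb (0.440 to 0.802). Chromosomes 4, 6 and 18, however, had 4.33, 4.59 and 4.74 peaks per Mb, inside the interval of the clusters.

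**Figure D1:**
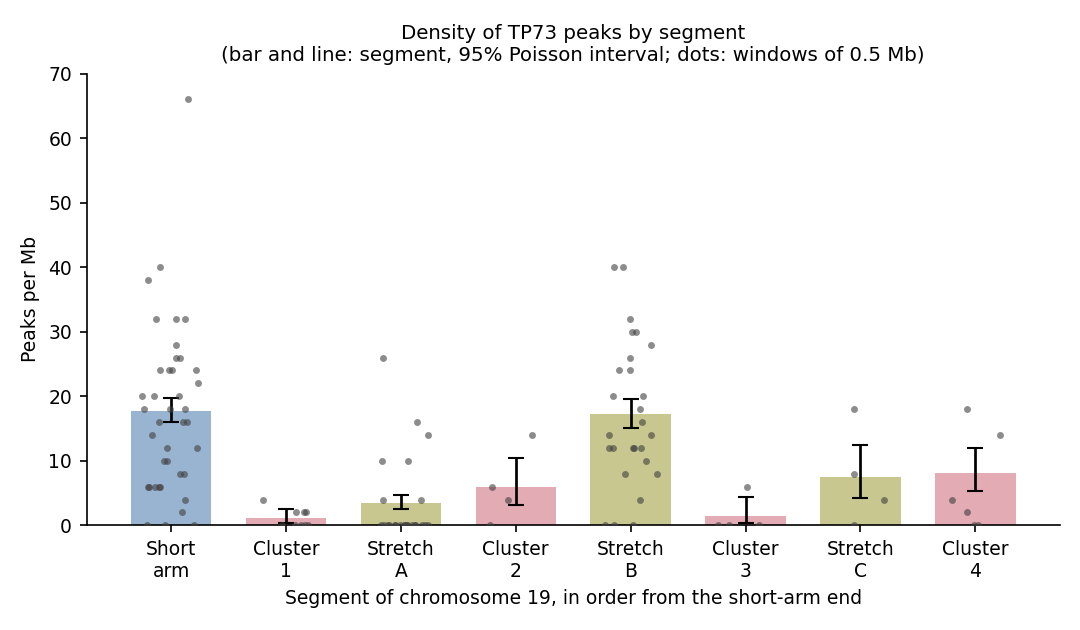
Peaks per Mb (vertical axis) in the 8 segments of chromosome 19, with exact 95% Poisson intervals as black lines and each whole window of 0.5 Mb as a dot. The short arm (17.8 per Mb) and stretch B (17.3 per Mb) stand above all 4 clusters, which lie between 1.11 and 8.13 per Mb, and 1 window of the short arm reaches 66 per Mb (33 peaks).

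The 4 clusters were not equally sparse. Cluster 1 had 5 peaks, or 1.11 per Mb (0.361 to 2.59), and cluster 3 had 3 peaks, or 1.5 per Mb (0.309 to 4.38). Cluster 2 had 12 peaks, or 6 per Mb (3.10 to 10.5), and cluster 4 had 26 peaks, or 8.13 per Mb (5.31 to 11.9). Cluster 4 was 7.31 times as dense as cluster 1 (2.76 to 24.4) and 5.42 times as dense as cluster 3 (1.66 to 27.96). Clusters 4 and 2 were not told apart, with a ratio of 1.35 (0.660 to 2.95). Each of the 4 was below the short arm, with ratios of 0.0626 (0.0202 to 0.147), 0.338 (0.173 to 0.598), 0.0845 (0.0173 to 0.249) and 0.458 (0.295 to 0.682) for clusters 1 to 4.

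In cluster 1, the first peak lay at 21203588 to 21203958, 1.2 Mb inside the segment's lower edge. It was the strongest of the 5, with a fold enrichment of 36.7 from 127 ChIP reads at the summit. Fold enrichment is the peak caller's ratio of ChIP signal to control background at the summit. The region at 23700249 to 23700586 followed, with a fold of 28.8 from 117 reads. The other three, at 21511693 to 21511917, 23725536 to 23725693 and 24092657 to 24092808, had folds of 8.39, 10.3 and 7.08 from 42, 35 and 28 reads. No summit was called in the 2.19 Mb between 21511799 and 23700411. Thus 2 of the 5 peaks were strong and the other three lay below the chromosome's median fold of 11.7.

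Cluster 3 held its 3 peaks within 50 kb. The peak at 52692892 to 52693394 had a fold of 52.4 from 182 reads, and its q-value ranks it above every peak of clusters 1 and 2. Peaks at 52643099 to 52643423 and 52674707 to 52674892 had folds of 14.8 and 9.46 from 90 and 32 reads. The first of these stood over a control background of 5 reads, the highest in the 4 clusters. Beyond the third peak no summit was called for 1.93 Mb, up to 54619135 in stretch C.

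In clusters 2 and 4 the peaks lay mostly near the ends, a division made after the positions had been seen. The first 0.5 Mb of cluster 2 held 7 peaks, the last 0.5 Mb held 3 and the middle 1 Mb held 2. Its strongest peaks were the last of the segment, at 38494119 to 38494648 (fold 42.7, 174 reads) and 38470464 to 38470809 (fold 36.9, 128 reads). The third, at 36705755 to 36706096 (fold 28.6, 99 reads), had a weak neighbour 450 bp away with a fold of 6.59 from 22 reads. The 2 peaks of the middle had folds of 13.9 and 10.3. The peak at the upper end lay only 5589 bp inside the segment, so its place in the cluster depends on where the edge is drawn.

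Cluster 4 showed the same layout at the long-arm end. Its first 0.5 Mb held 9 peaks, or 18 per Mb (8.23 to 34.2), and its last 0.7 Mb held 14, or 20 per Mb (10.9 to 33.6). The 2 Mb between them held 3 peaks, or 1.5 per Mb (0.309 to 4.38). These parts too were drawn after the positions had been seen, so their intervals cannot test the contrast between them. The 9 peaks at the lower end lay within 75.6 kb and ranged in fold from 5.86 to 52.7, led by the peak at 56154668 to 56155095 with 191 reads. The 14 at the upper end ranged from 7.17 to 26.6, with 103 reads at 58892054 to 58892786 and 92 at 58873838 to 58874431. The 3 peaks of the middle had folds of 8.02, 6.31 and 8.31 from 27, 21 and 28 reads. No summit was called over 1.16 Mb and 1.07 Mb on either side of the pair at 57791284 and 57791858.

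The short arm was dense through most of its length but uneven. From 0 to 5 Mb it held 122 peaks, or 24.4 per Mb (20.3 to 29.1), against 55 peaks, or 11 per Mb (8.29 to 14.3), from 5 to 10 Mb. The steps from 10 to 15 Mb and from 15 to 20 Mb held 89 peaks each. The window of 1 Mb with the most peaks of the chromosome was 1 to 2 Mb, with 47, and the third was 18 to 19 Mb, with 29. In the window from 1 to 2 Mb, 8 of 47 peaks had a fold of at least 20, and the median fold was 10.03. The widest peak of the chromosome, 1175 bp at 12900119 to 12901293, had a fold of 67.8 from 277 reads. The short arm also had a stretch of 1.02 Mb without a summit, from 11639905 to 12662210, and whether zinc finger genes lie there was not tested.

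At a scale of 100 kb the densest windows were also on the short arm. The window from 2000001 to 2100000 held 13 peaks, of which 1 was strong, with a fold of 60.7 from 211 reads at 2089047 to 2089637. The median fold of the 13 was 11.5 and the weakest was 6.31. The window from 1200001 to 1300000 held 11 peaks with folds of 6.25 to 48.04. The windows from 1000001 to 1100000 and from 13200001 to 13300000 held 10 each. The first of these reached a fold of 71.6, whereas no peak of the second exceeded 16.5. A crowded window was therefore not always a strongly enriched one.

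On the long arm outside the clusters the peaks were concentrated in stretch B. Its 233 peaks gave 17.3 per Mb (15.1 to 19.6), which was 0.972 times the density of the short arm (0.821 to 1.15). Stretch A held 42 peaks, or 3.50 per Mb (2.52 to 4.73), and stretch C held 15, or 7.50 per Mb (4.2 to 12.4). Stretch A begins with the longest peak-free interval of the chromosome, 5.67 Mb from 24092717 in cluster 1 to 29763544. Assembly gaps such as the centromere were not subtracted. A further 2.63 Mb without a summit followed from 30439036 to 33071910. Between these intervals, 13 peaks lay from 30 to 31 Mb, and the strongest, at 30327199 to 30327747, had a fold of 69.01 from 240 reads. The other leading peaks of stretch A were at 33789310 to 33789809 (fold 58.4, 203 reads) and 36103357 to 36103738 (fold 35.6, 145 reads). Stretches of low density were thus also found outside the 4 fixed segments, with their gene content not tested.

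Stretch B held the window of 1 Mb with the second most peaks, 34 from 39 to 40 Mb, where the median fold was 14.3 and 10 peaks had a fold of at least 20. It also held peak-free intervals of 1.18 Mb (42856510 to 44037367) and 0.962 Mb (44288597 to 45250730). Just below the first of these, the window from 42700001 to 42800000 held 8 peaks, of which 5 had a fold of at least 20. In all, 10 of the 59 windows of 1 Mb on the chromosome (16.9%) held no summit. They include the windows from 25 to 29 Mb, inside the longest peak-free interval. From first to last summit the share of empty windows was 16.7% of 60 on chromosome 19 and 4.88% of 82 on chromosome 17. It was 2.78% of 36 on chromosome 22 and 11.7% of 2745 on the other autosomes. Assembly gaps were not subtracted, so these shares may differ with the gaps of each chromosome. The median count was 9.5 peaks per window on chromosome 19, 9 on chromosome 17, 9.5 on chromosome 22 and 5 on the other autosomes.

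The peaks inside the clusters were fewer, and no difference in their strength was detectable. Their median fold was 11.5 (binomial interval of the median 9.17 to 14.8), against 11.2 (10.6 to 12.03) on the short arm and 12.03 (11.5 to 13.5) on the rest of the long arm. A fold of at least 20 was reached by 13 of the 46 cluster peaks, or 28.3% (15.99 to 43.5). Over the whole list 23.0% of peaks reached that fold. Outside the clusters the share on chromosome 19 was 23.3%, and the odds ratio of clusters to the remainder was 1.3 (0.611 to 2.61). Just below and just above that fold on chromosome 19 were peaks at 19.8 and 20.1, 1 read apart. The strong peaks alone had a density of 1.11 per Mb in the clusters (0.592 to 1.90). Elsewhere on the chromosome together it was 3.16 per Mb (2.67 to 3.71), a ratio of 0.352 (0.183 to 0.620). By segment it was 3.85 per Mb on the short arm, 4.89 in stretch B and 0.583 in stretch A. Stretch C had no strong peak, so stretches A and C were below the clusters. At a fold of at least 50, which 3.54% of the whole list and 32 peaks of chromosome 19 reached, the clusters held 2 peaks, and the density ratio of 0.271 had an interval of 0.0313 to 1.07 that includes 1.

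**Figure D2:**
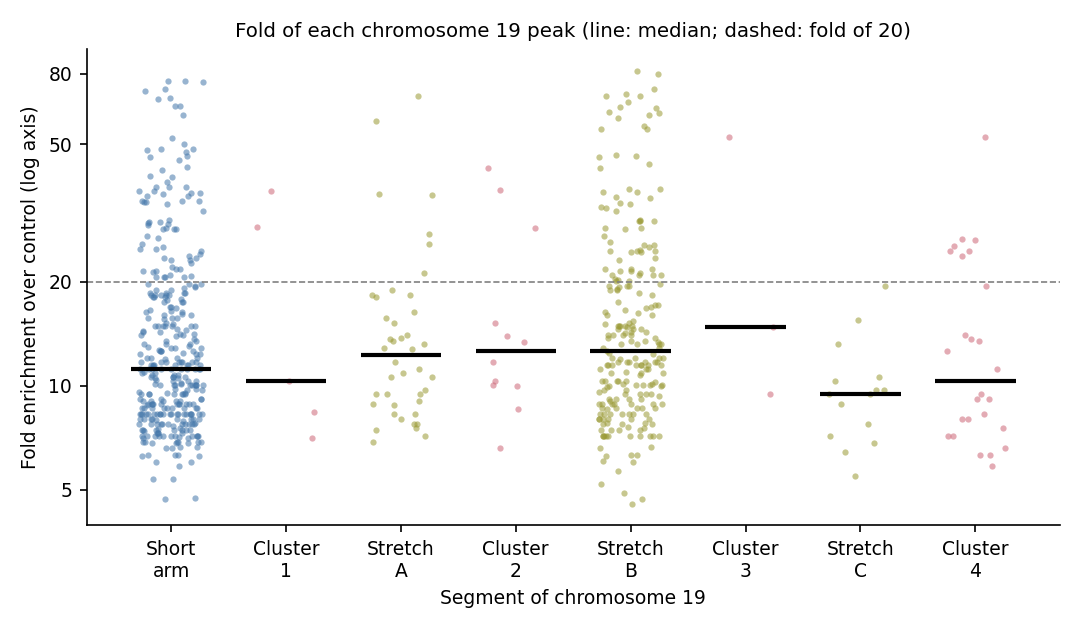
Fold enrichment (vertical log axis) of each of the 691 peaks by segment, with the segment median as a black line and a dashed line at a fold of 20. Medians range from 9.46 in stretch C to 14.8 in cluster 3 (3 peaks), while the highest values, up to 81.6, are in stretch B and on the short arm.

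Stretch B had the largest share of strong peaks among the segments with over 20 peaks, 66 of 233 or 28.3% (22.6 to 34.6), against 21.7% (17.5 to 26.3) on the short arm. The odds ratio of 1.43 had an interval of 0.956 to 2.12, so this difference was not beyond counting error. In stretch C the highest fold of the 15 peaks was 19.5, at 54714641 to 54715220, from 67 reads.

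The 10 peaks with the highest q-value ranks were all outside the clusters, 6 on the short arm and 4 in stretch B. Among the first 50 there were 3 cluster peaks, and among the first 100 there were 7. The clusters held 6.66% of the chromosome's peaks, so these counts lay near that share. Chromosome 19 held 12 of the 100 highest −log10 q-values of the whole list, against 3.65% of all peaks in the list. The strongest, at 48021235 to 48021908, had 284 reads and a fold of 81.6. Its nearest neighbour was 2402 bp away. On the short arm, peaks at 4059849 to 4060431 and 5790453 to 5791154 had the same fold of 76.5 from 266 reads. The region at 6577345 to 6577827 followed with a fold of 75.9 from 264 reads. The region at 6615918 to 6616421 had more reads, 278, but a fold of 68.04, because its control background was 3 reads and not the genome-wide 2.41. The remaining ones of the 10 were at 12900119 to 12901293, 41224797 to 41225424 (fold 66.3, 271 reads), 47734312 to 47734929, 10664548 to 10665284 and 49302161 to 49302693. The last pair had a fold of 72.2 from 251 reads each.

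The second strongest peak and the weakest by fold were neighbours. The window from 47700001 to 47800000 held 9 peaks within 48.5 kb. The peak at 47734312 to 47734929 had a fold of 79.9 from 278 reads. On its upper side, the region at 47735649 to 47736027 reached 28.6 from 99 reads, and further on one at 47759680 to 47760715 had a fold of 32.9 from 114 reads. On its lower side, peaks at 47733736 to 47734004, 47730410 to 47730557 and 47729326 to 47729481 had folds of 8.31, 6.05 and 4.56 from 28, 30 and 27 reads. The last is the lowest fold of the chromosome and stood over 5 control reads. Strength within this window therefore spanned nearly the whole range seen on the chromosome.

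Measured per protein-coding gene, chromosome 19 was the autosome with the fewest peaks. It had 11.8 peaks per Mb (10.9 to 12.7), close to chromosome 17 (ratio 1.05, 0.952 to 1.16) and chromosome 22 (ratio 0.986, 0.872 to 1.12), and 1.80 times the density of the other autosomes together (1.67 to 1.95). The ratio to chromosome 17 was 1.11 (1.002 to 1.22) without each chromosome's longest peak-free interval, and the ratio to chromosome 22 was 1.24 (1.06 to 1.45) among peaks scored against the genome-wide background. Per 100 protein-coding genes it had 47.6 peaks (44.1 to 51.3), against 100.9 on the other autosomes, a ratio of 0.472 (0.437 to 0.509). Chromosome 17 had 77.8 per 100 genes (72.8 to 82.98) and chromosome 22 had 92.9 (84.2 to 102.2). Leaving out zinc finger genes everywhere raised chromosome 19 to 58.3 per 100 genes against 102.5, a ratio of 0.568 (0.526 to 0.613). Counting every RefSeq gene in place of protein-coding ones gave 25.6 against 33.0, a ratio of 0.776 (0.718 to 0.838). The direction was the same under all 3 ways of counting, but over all RefSeq genes chromosome 6 was lower still, with 23.2 peaks per 100 genes. Peaks were counted per chromosome and not assigned to genes.

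**Figure D3:**
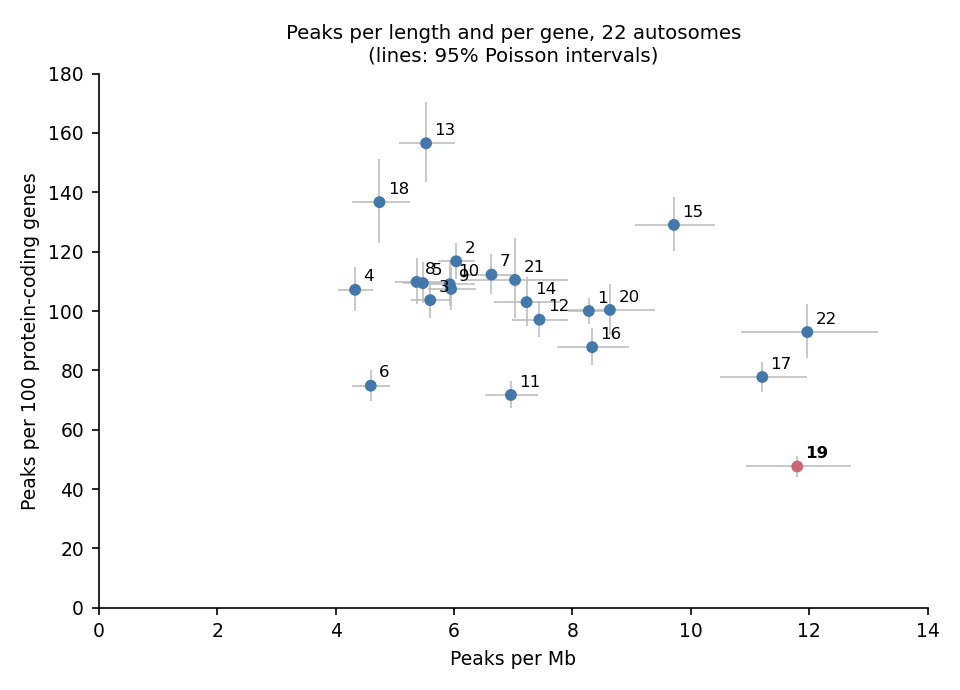
Peaks per Mb (horizontal axis) and peaks per 100 protein-coding genes (vertical axis) of the 22 autosomes, with exact 95% Poisson intervals as lines. Chromosome 19 (red) is at 11.8 per Mb and 47.6 per 100 genes, beside chromosomes 17 and 22 in density and below every other autosome per gene.

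Peaks on chromosome 19 were more often wide than elsewhere. Of 691 peaks, 111 were at least 500 bp wide, or 16.1% (13.4 to 19.02), against 8.71% (8.30 to 9.13) on the other autosomes, an odds ratio of 2.01 (1.61 to 2.48). It ranked first of the 22 autosomes, with chromosome 14 second at 12.04% (9.59 to 14.9). Chromosomes 17 and 22 had 8.25% and 9.55%, and the odds ratios against them were 2.13 (1.54 to 2.95) and 1.81 (1.22 to 2.73). The median width was 270 bp (260 to 289) against 254 bp (253 to 257) on the other autosomes.

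Width rises with strength, so wide peaks were also counted within classes of fold. Among peaks with a fold of 10 to 20, 44 of 270 (16.3%) were wide on chromosome 19 and 6.31% of 6548 elsewhere, an odds ratio of 2.89 (2.01 to 4.08). From 20 to 50 the shares were 28.2% and 19.6%, with an odds ratio of 1.61 (1.06 to 2.40), and from 50 up 81.3% and 62.5%, with 2.60 (1.03 to 7.84). Below 10 few peaks were wide, 1.55% against 0.973%, and the interval of 0.422 to 4.34 includes 1. One example of a wide, weak peak lay at 1249023 to 1249961, which spanned 939 bp with a fold of 10.03 from 34 reads. Wide peaks were found both inside and outside the clusters, 7 of 46 (15.2%) and 104 of 645 (16.1%), with an odds ratio of 0.934 (0.343 to 2.19).

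**Figure D4:**
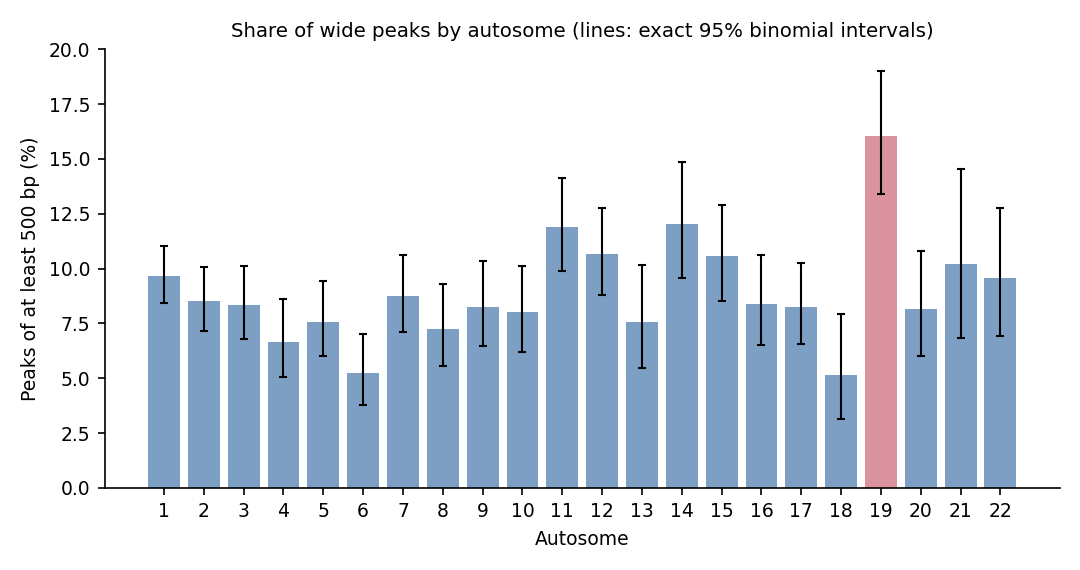
Share of peaks at least 500 bp wide (vertical axis, percent) on each autosome, with exact 95% binomial intervals as black lines. Chromosome 19 (red) is highest at 16.1%, and its interval starts at 13.4%, above the values of all the other autosomes.

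Summits on chromosome 19 also lay close together more often than on the other autosomes together. Another summit was within 1 kb for 121 of the 691 peaks, or 17.5% (14.7 to 20.6), against 13.3% on the other autosomes, an odds ratio of 1.38 (1.12 to 1.70). Against chromosomes 17 (14.96%) and 22 (14.3%) the odds ratios were 1.21 (0.914 to 1.59) and 1.27 (0.897 to 1.81), both with intervals that include 1. Chromosome 12 had nearly the same share as chromosome 19, 17.1% (14.8 to 19.6). Chromosome 19 has 1.80 times the peak density of the other autosomes together, and closeness at equal density was not tested. The 121 peaks formed 64 neighbouring pairs, 32 of them on the short arm and 22 in stretch B. These segments held 51.4% and 33.7% of the chromosome's peaks, so the pair counts lay near those shares. In 43 pairs neither peak had a fold of at least 20, in 19 pairs 1 peak had, and in 2 pairs both had. Among all peaks of chromosome 19, 23.6% reached that fold, and 23.0% over the whole list. Whether paired peaks differ in fold from the others was not tested. The pairs of strong peaks were at 861806 to 862785 (folds 48.4 and 24.9, summits 566 bp apart) and 8258870 to 8259646 (folds 29.2 and 23.2, 443 bp apart). With peaks closer than 500 bp merged, which removes most such pairs by construction, the shares were 4.06% of 641 and 2.74% of 16820 peaks, with an odds ratio of 1.5 (0.962 to 2.25) that no longer excludes 1. This comparison was added after seeing the data. Clusters 1 and 3, with only 5 and 3 peaks, held none of the pairs, cluster 2 held 2 and cluster 4 held 3. The 4 clusters together held 6.66% of the chromosome's peaks.

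The control background behind the folds was mostly at the lowest level in use. The genome-wide background of 2.41 control reads, the lowest the caller used, applied to 501 of the 691 peaks, or 72.5% (69.01 to 75.8), the highest share of the 22 autosomes. The share was 50.3% on the other autosomes together, an odds ratio of 2.60 (2.19 to 3.10). By chromosome the share varied widely, from 0.754% on chromosome 15 to 70.7% on chromosome 18. The latter lies inside the interval of chromosome 19, so a high share was not particular to chromosome 19. On chromosome 17 the share was 69.9% (odds ratio 1.14, 0.909 to 1.43). In the clusters it was 67.4% (51.98 to 80.5). Elsewhere on chromosome 19 it was 72.9% (69.3 to 76.3), with an odds ratio of clusters to the remainder of 0.770 (0.392 to 1.57). The highest control background was 7 reads, on the short arm. These values exist at peaks alone, so control coverage between the peaks of the clusters, and with it the share of the clusters in which reads could be placed, was not tested.

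The segment edges fell in different surroundings. At 20 Mb the nearest summits were 112528 bp below (fold 36.6) and 1203785 bp above (fold 36.7). At 24.5 Mb they were 407284 bp below (fold 7.08) and 5263543 bp above (fold 16.3). At 36.5 Mb they were 77503 bp below (fold 13.2) and 45334 bp above (fold 11.7), and at 38.5 Mb they were 5589 bp below (fold 42.7) and 204934 bp above (fold 10.9). At 52 Mb the distances were 102659 bp below (fold 8.31) and 643253 bp above (fold 14.8), and at 54 Mb 1306877 bp below (fold 52.4) and 619134 bp above (fold 6.83). At 56 Mb they were 80492 bp below (fold 7.74) and 110950 bp above (fold 5.86). Moving each inner edge by 0.25 Mb inward lowered the density of the clusters from 3.93 to 2.71 per Mb, and moving it outward raised it to 4.24.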

How the data were processed

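The values come from the authors' deposited peak list of the ChIP library. The tools were Bowtie2, SAMtools and MACS2 (version 2.1.1.2016030) and the build was hg19, per the submitters' processing notes. Their settings were not given in the sources used here. Single-end reads were 50 bases long, per the labels' protocols. The deposited file gives for each peak a fold enrichment (a ratio over the control background), the −log10 of its p-value and q-value, and a score, which was not used. The labels name whole cell extract as control, whereas all 18908 peak names contain the text IgG, so which library served as control is not settled.

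ChIP reads and control background at each summit were recovered by solving the caller's formulas for fold and p-value. All 18908 peaks had a solution, 101 had more than 1, and 100% gave whole reads within 0.02. On 1998 simulated peaks, made with the same formulas, reads were recovered for 98.45%. Summits carried 18 to 284 reads over the list and 20 to 284 on chromosome 19.

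Densities have exact Poisson intervals, shares exact binomial (Clopper-Pearson) intervals, and ratios exact conditional intervals, at 95%. Segment densities use the length of the segment, and chromosome densities the span from first to last summit. Regions were named by rule: the 10 highest q-values, the 3 highest of each segment, the densest windows, the longest peak-free intervals, the widest and weakest peak and those nearest the edges. Those named otherwise were chosen after their values were seen: single peaks of the clusters, the neighbours in the window from 47700001, the strong pairs and the wide, weak peak. Members and segments were chosen with earlier results of these data known. Planned counts of zinc finger genes with a peak were not run, since an hg19 annotation was not used here. Alternatives were limits on q, fold and reads, merging, midpoints, gap removal and moved edges. The software was Python 3.11.15 with scipy 1.17.1, matplotlib 3.10.9, numpy 2.4.6 and pandas 2.3.3.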

Additional observations from a re-analysis of the deposited data

How the results depend on the processing

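The low density of the clusters against the short arm and the pooled rest of the long arm kept its direction under every limit run. The ratio to the short arm, 0.222, lay between 0.155 and 0.289, and the ratio to the rest of the long arm, 0.373, between 0.255 and 0.419. The lowest values, 0.155 and 0.255, came with the cluster edges moved 0.25 Mb inward, which leaves out 10 of the 12 peaks of cluster 2 and 9 of the 26 of cluster 4, whose upper end does not move. The density of chromosome 19, 11.8 per Mb, was 13.1 without its longest peak-free interval. It was 2.78 for peaks with a fold of at least 20. Among limits added after seeing the data, it was 4.93 for peaks with at least 50 ChIP reads and 8.55 for peaks at the genome-wide background. These fall by construction, since fewer peaks are counted. The ratio to chromosome 22, 0.986, was 1.24 among peaks at the genome-wide background, because that chromosome has a lower share of them (57.8%), and its interval (1.06 to 1.45) excludes 1. The ratio to chromosome 17 stayed between 1.04 and 1.11. Without the longest peak-free intervals it was 1.11, with an interval of 1.002 to 1.22 that also excludes 1. A limit of 10 on the −log10 q-value and a fold of at least 5 moved no density, ratio, median or share out of its interval. No paired analysis was possible because a single ChIP library was made, so none could be left out. Peaks below the caller's limit, here 20 ChIP reads at the weakest, were not analysed here.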
